A study of Mus musculus with 4 samples.

Results

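The regulators of globin switching described here are 9 genes, Klf1, Sox6, Bcl11a, Zbtb7a, Myb, Lin28b, Igf2bp1, Igf2bp2 and Igf2bp3. They were chosen by symbol as known regulators of the silencing of embryonic or fetal globin genes, out of 35927 genes with counts, and all 9 were found. Transcripts were measured by mRNA sequencing in E13.5 mouse red cell progenitors taken from fetal liver. The cells had been sorted for the transferrin receptor CD71 and against TER119, a protein of later red cells. The mutant group (2 libraries) was Rcor1-/- and the control group (2 libraries) mixed Rcor1+/+ with Rcor1+/- embryos, all on a C57BL/6 background, and every library pooled RNA of several livers. Rcor1 encodes CoREST, the scaffold that joins the histone demethylase Kdm1a to histone deacetylases. The control group is therefore not purely wild type, and the sources used here do not give the share of heterozygous embryos in it.

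Red cells change the globin genes they use as the embryo grows. In the mouse, yolk sac cells use the embryonic genes Hbb-y, Hbb-bh1 and Hba-x, and fetal liver cells use the adult genes. Klf1 binds the CACCC box of the adult beta globin promoter and activates it, and it also activates Bcl11a and Zbtb7a. Sox6, Bcl11a and Zbtb7a bind DNA and repress the embryonic or fetal genes, partly through the NuRD corepressor. Myb is a progenitor factor that acts upstream of Klf1. Lin28b blocks the maturation of the let-7 microRNAs. The transcripts of Lin28b itself and of the Igf2bp genes, which encode RNA-binding proteins, are known targets of let-7.

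Of the 9 regulators, the factors that act on adult and embryonic globin genes were lower in Rcor1 mutant progenitors, while Myb and Igf2bp3 did not pass the test. Sox6 and Zbtb7a were at 0.462 and 0.497 of their control levels, Klf1 at 0.604 and Bcl11a at 0.769. The RNA-binding genes did not move as a group: Igf2bp1 was at 0.803 of its control level, Igf2bp2 at 1.91 and Lin28b at 1.15. In all, 5 fell, 2 rose and 2 did not pass at an edgeR adjusted p of 0.05. The number that rose was 1 without control replicate 1 or without mutant replicate 2, when Lin28b did not pass (edgeR adjusted p = 0.263 and 0.233). Over all 13140 genes tested 57.5% passed, 29.2% lower and 28.3% higher. Of the 9 regulators 55.6% were lower and 22.2% higher. The CPM values of the groups did not overlap for any of the 9, nor for 77.9% of all genes tested. The median log2 fold change was -0.32 over the 9 genes and 0.01 over all genes tested. All 9 passed the filter on low counts. In bulk RNA, fewer cells of a type and less transcript per cell cannot be told apart.

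Some of the sequences behind these genes are shown because Klf1 and Zbtb7a fell together and the embryonic globin gene Hbb-y rose. The windows are the 250 bases before the annotated start of Klf1, Zbtb7a and the embryonic globin gene Hbb-y, from RefSeq on GRCm38.p6, which is not the build of the counts. Capitals mark matches on either strand to the GATA motifs AGATAA and TGATAA, the CCAAT box, the BCL11A motif TGACCA and the CACCC box CCACACCC.
Klf1, chr8:84901732-84901981, plus strand: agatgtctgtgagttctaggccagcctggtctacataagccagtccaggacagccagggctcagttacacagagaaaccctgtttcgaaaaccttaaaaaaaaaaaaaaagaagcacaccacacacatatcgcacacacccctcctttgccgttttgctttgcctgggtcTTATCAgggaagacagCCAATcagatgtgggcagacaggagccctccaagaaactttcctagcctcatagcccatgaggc
Zbtb7a, chr10:81136021-81136270, plus strand: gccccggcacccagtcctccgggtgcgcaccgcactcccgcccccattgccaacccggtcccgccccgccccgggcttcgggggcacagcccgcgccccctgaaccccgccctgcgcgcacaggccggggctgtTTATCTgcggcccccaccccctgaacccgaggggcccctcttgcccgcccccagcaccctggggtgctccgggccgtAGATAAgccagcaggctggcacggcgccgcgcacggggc
Hbb-y, chr7:103853208-103853457, minus strand: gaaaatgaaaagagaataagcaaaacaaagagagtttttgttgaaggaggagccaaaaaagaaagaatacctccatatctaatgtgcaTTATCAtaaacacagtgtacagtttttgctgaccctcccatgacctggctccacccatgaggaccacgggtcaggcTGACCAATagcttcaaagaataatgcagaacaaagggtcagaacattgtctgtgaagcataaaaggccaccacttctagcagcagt

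The Klf1 window held 1 TGATAA match, read on the opposite strand from 80 bases before the start, and 1 CCAAT match at 64 bases. The Zbtb7a window lies before the start of 1 RefSeq transcript, inside the span of the gene. It held 2 AGATAA matches, 1 on each strand, at 116 and 39 bases. In the Hbb-y window TGACCA began 86 bases before the start and overlapped the CCAAT match at 83 bases, and a TGATAA match lay at 162 bases. Among 32851 promoters of the same length, 9.99% held AGATAA, 7.94% TGATAA, 33.8% CCAAT, 11.4% TGACCA and 3.2% CCACACCC. The Lin28b window held 2 AGATAA matches and 1 CCAAT match, and the Myb and Igf2bp2 windows held none of these letters. The Bcl11a and Igf2bp3 windows each held 1 CCAAT match and no GATA match. Of 6 Sox6 windows, 1 held 1 AGATAA, 3 CCAAT and 1 CACCC box match, and another held 1 CCAAT match. The other Sox6 windows held none, and Igf2bp1 had no window. Like that of Zbtb7a, the Lin28b, Bcl11a, Igf2bp3 and Sox6 windows lie inside the span of their gene. The window of the embryonic globin gene Hba-x, not shown, held a TGACCA match at 40 bases and a TGATAA match at 108 bases. A match is a description of the letters and says nothing about binding in these cells.

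The let-7 family links Lin28b with the Igf2bp genes, so its mature sequences and its matches in these transcripts are given too. Capitals mark the seed, bases 2 to 8, which 10 mature let-7 and miR-98 names share.
mmu-let-7a-5p, chr13:48538239-48538260, minus strand: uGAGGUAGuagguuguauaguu
mmu-let-7g-5p, chr9:106178846-106178867, plus strand: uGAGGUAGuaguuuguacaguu
mmu-let-7i-5p, chr10:122985698-122985719, minus strand: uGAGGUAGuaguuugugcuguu
mmu-miR-98-5p, chrX:151913229-151913250, plus strand: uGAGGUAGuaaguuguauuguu

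The reverse complement of that seed, CTACCTC, occurred in the 3′ untranslated region of Lin28b 4 times, of Igf2bp1 4 times, of Igf2bp2 once and of Igf2bp3 once. The transcript with the longest coding sequence in GENCODE M21 was read for each gene. Klf1, Sox6, Bcl11a, Zbtb7a and Myb held no match in the transcript read, where the region was only 352 bases for Klf1 and 260 for Sox6. Over all genes 7.99% held the letters. Among genes with a 3′ untranslated region of similar length, 24.4% did at the length of Lin28b, 34.4% at that of Igf2bp1, 12% at that of Igf2bp2 and 13.2% at that of Igf2bp3. The shares were 17.6% at the length of Bcl11a, 20% at that of Zbtb7a and 8.57% at that of Myb. They were 2.88% at the length of Klf1 and 2.33% at that of Sox6. Most genes of these lengths held no match, so the lack of one does not set these genes apart. The match nearest the stop codon is shown for each gene on GRCm38, with the 7 matching bases in capitals.
Lin28b, chr10:45381018-45381045, minus strand: cacccgggcgggaagtCTACCTCatgca
Igf2bp1, chr11:95961774-95961801, minus strand: tgctgtgcgaagtaaaCTACCTCaaggt
Igf2bp2, chr16:22059469-22059496, minus strand: aacacacaaataaaagCTACCTCaggtg
Igf2bp3, chr6:49086783-49086810, minus strand: gtgcatttttactcaaCTACCTCaggta
Mature microRNAs are not measured by this kind of library. The 9 let-7 and Mir98 hairpin rows of the table held 0 to 2 counts per library.

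The libraries held 25186819 and 15053229 counts in the mutant group and 26892375 and 22817080 in the control group. Rcor1 had 77.9 and 78.9 CPM in the mutant libraries, against 160 and 175 CPM in the control libraries (log2 fold change -1.09 ± 0.06 SE, edgeR adjusted p = 4.6e-11). CPM are counts scaled to library size with edgeR's TMM factors. The table does not say whether the counted exons include the deleted part. The sorted identity was checked with 8 erythroid markers, Klf1 among them. All were detected in every library, and all 8 fell, with a summed level of 4051 and 3956 CPM in mutant and 5685 and 5809 CPM in control libraries. Genes of other cell types were present as well. The 12 hepatoblast markers summed to 1370 and 1374 CPM in mutant and 1024 and 1006 CPM in control libraries, and 8 of them rose. The 10 mesenchymal markers summed to 27.02 and 24.7 CPM against 8.37 and 8.35 CPM, and 8 rose. For 8 stem and progenitor markers the sums were 299.5 and 308 CPM against 223 and 229.6 CPM, with 5 higher. Most of this sum came from Kit (mean 194 CPM in mutants and 186 CPM in controls), which did not pass. The log2 fold changes of the 5 were 4.08 for Cd34, 3.93 for Flt3, 2.29 for Meis1, 1.79 for Gata2 and 0.73 for Mpo. For 8 megakaryocyte markers the sums were 342 and 338 CPM against 112 and 109.7 CPM, with 6 higher and 1, Vwf, lower. The 8 endothelial markers summed to 171 and 169.7 CPM against 163 and 161 CPM, with 4 higher. Most of this sum came from Egfl7 (mean 140 CPM in mutants and 150 CPM in controls), which did not pass. The log2 fold changes of the 4 were 3.05 for Tek, 2.15 for Pecam1, 1.53 for Tie1 and 1.22 for Kdr. The 8 macrophage markers summed to 25.4 and 25.1 CPM against 17.9 and 18.1 CPM, with 2 higher, Csf1r and Emr1. Over all tested genes 28.3% were higher, so the share of macrophage markers that rose was near the background. The part of these cell types in the results below was not tested.

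**Figure D1:**
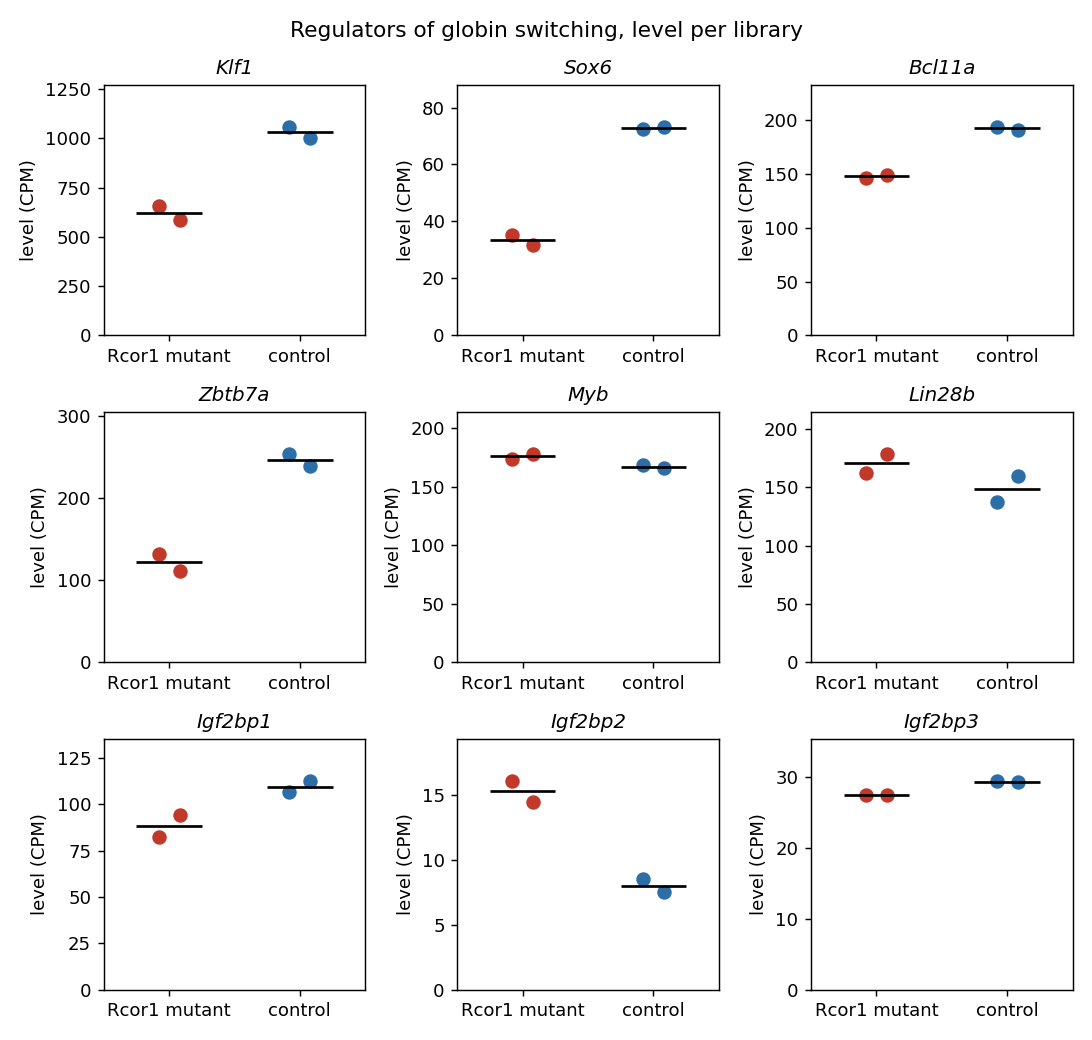
Level of each regulator in CPM (vertical axes, from 0) in the 2 Rcor1 mutant and 2 control libraries; points are libraries and bars are group means. Klf1, Sox6, Bcl11a and Zbtb7a lie lower in both mutant libraries, and Igf2bp2 lies higher.

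Among the DNA-binding factors, Klf1 (ENSMUSG00000054191, chr8:84901982-84905291 on GRCm38.p6) was the most abundant per kb of exon. Klf1 had 659 and 585 CPM in mutant libraries, against 1060 and 1001 CPM in control libraries. Both mutant libraries lay well below both controls, and the gap was several times the spread within either group. The log2 fold change was -0.73 ± 0.05 SE (95% interval -0.84 to -0.61, edgeR adjusted p = 8.65e-08). Of all tested genes, 4.38% had a lower fold change.

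Sox6 (ENSMUSG00000051910, chr7:115470872-116040776), an HMG box factor that represses Hbb-y in definitive red cells of the mouse, fell the furthest of the 9. Sox6 had 35.3 and 31.7 CPM in mutant libraries, against 72.5 and 73.3 CPM in control libraries. The groups did not overlap, and the controls were nearly equal. Its log2 fold change was -1.11 ± 0.07 SE (95% interval -1.27 to -0.96, edgeR adjusted p = 1.41e-09), and 1.43% of tested genes lay lower.

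Zbtb7a (ENSMUSG00000035011, chr10:81135225-81152222) encodes LRF, a zinc finger repressor of fetal globin in human cells. It had 132 and 112 CPM in mutant libraries, against 253.6 and 239 CPM in control libraries. The mutant libraries differed from each other more than for Sox6 or Bcl11a, but the groups stayed far apart. The log2 fold change was -1.01 ± 0.07 SE (95% interval -1.17 to -0.85, edgeR adjusted p = 4.27e-07).

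Bcl11a (ENSMUSG00000000861, chr11:24076564-24173558), the zinc finger factor that silences fetal and embryonic beta-like globin genes, fell by less. Bcl11a had 146 and 149 CPM in mutant libraries, against 194 and 191 CPM in control libraries. The replicates of each group were close, and the groups did not overlap. The log2 fold change was -0.38 ± 0.05 SE (95% interval -0.48 to -0.28, edgeR adjusted p = 2.88e-06). Its interval did not meet those of Klf1, Sox6 and Zbtb7a, although the difference between genes was not tested. Bcl11a is also a gene of B cell precursors. The B lymphoid markers Cd79a, Ebf1, Il7r and Igll1 were at 0 counts in at least 1 library, and the summed level of the 8 B lymphoid markers was 5.03 and 4.199 CPM in mutant and 0.626 and 0.917 CPM in control libraries, most of it from Cd79b.

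Myb (ENSMUSG00000019982, chr10:21124930-21160984) had 174 and 178 CPM in mutant libraries, against 168.5 and 166 CPM in control libraries. Both mutant libraries were higher by a small margin. The log2 fold change was 0.07 ± 0.05 SE with a 95% interval of -0.03 to 0.17 (edgeR adjusted p = 0.195). Myb passed as higher with upper quartile scaling (0.15, edgeR adjusted p = 0.0121) and with library totals alone (0.21, edgeR adjusted p = 0.000831). Over all alternatives its adjusted p ran from 0.000831 to 0.624.

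In the RNA-binding arm, Lin28b (ENSMUSG00000063804, chr10:45376617-45486314) had 162 and 178 CPM in mutant libraries, against 137 and 159.8 CPM in control libraries. The higher control library lay just under the lower mutant library. Lin28b passed narrowly (log2 fold change 0.20 ± 0.07 SE, 95% interval 0.03 to 0.36, edgeR adjusted p = 0.0425). It did not pass without control replicate 1 (0.08, edgeR adjusted p = 0.263) or without mutant replicate 2 (0.14, edgeR adjusted p = 0.233), and its adjusted p over the alternatives ran from 2.8e-06 to 0.263.

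Igf2bp1 (ENSMUSG00000013415, chr11:95957163-96005944), which stabilises transcripts of fetal cells, had 82.6 and 94.0 CPM in mutant libraries, against 106 and 113 CPM in control libraries. It fell by 0.32 on the log2 scale, with an SE of 0.06 (95% interval -0.45 to -0.18, edgeR adjusted p = 0.000468). Igf2bp2 (ENSMUSG00000033581, chr16:22059009-22163299), the scarcest of the 9, had 16.1 and 14.4 CPM in mutant libraries, against 8.49 and 7.52 CPM in control libraries. It rose by 0.93 ± 0.12 SE (95% interval 0.69 to 1.18, edgeR adjusted p = 3.07e-06) on 425 and 227 counts in mutant and 217 and 164 in control libraries. The third paralog, Igf2bp3 (ENSMUSG00000029814, chr6:49085218-49215469), had 27.5 CPM in each mutant library, against 29.4 and 29.3 CPM in control libraries. Its replicates were almost equal, but the log2 fold change of -0.10 ± 0.08 SE did not pass (95% interval -0.26 to 0.07, edgeR adjusted p = 0.326), and it was 0.04 with library totals alone. All marker sums given above but the erythroid one were higher in the same libraries as Igf2bp2, and a link was not tested.

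The scale chosen for the libraries matters for the small changes. When the libraries were scaled by their totals alone, the median of all genes moved to a log2 fold change of 0.15, and 5112 genes passed as higher and 2553 as lower, against 3723 and 3835 with TMM. On that scale Klf1 was at -0.59, Sox6 at -0.98, Zbtb7a at -0.87 and Bcl11a at -0.24, all still lower, and Igf2bp1 was at -0.18 (edgeR adjusted p = 0.0203). Igf2bp2 was at 1.07 and Lin28b at 0.33 on that scale. The authors' deposited table gives -0.59 for Klf1, -0.98 for Sox6, -0.87 for Zbtb7a and -0.24 for Bcl11a, with Lin28b at 0.33 and Igf2bp2 at 1.07. In the authors' deposited table Myb is at 0.21 with an FDR of 0.0129 and Igf2bp1 at -0.18 with an FDR of 0.0531. The median over genes shared with that table is 0.14 in the authors' deposited table and 0.01 with TMM.

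**Figure D2:**
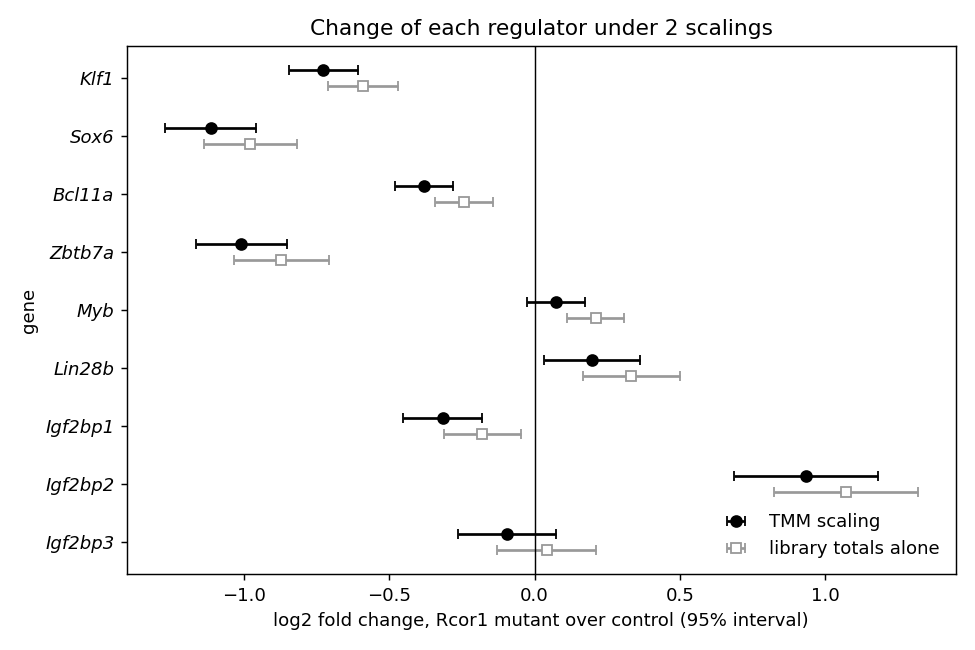
Log2 fold change of mutant over control (horizontal axis) for each regulator with its 95% interval, by TMM scaling (filled circles) and by library totals alone (open squares). Klf1, Sox6, Bcl11a, Zbtb7a and Igf2bp1 lie below 0 and Igf2bp2 and Lin28b above 0 on both scales, while Igf2bp3 changes side.

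Ratios of counts within a library do not depend on that choice. Per 100 counts of Myb, Zbtb7a had 76.1 and 62.7 counts in mutant libraries, against 150.5 and 144 in control libraries. Sox6 had 20.3 and 17.8 against 43.0 and 44.2, and Bcl11a had 84.3 and 83.8 against 115.1 and 115.0. Each of these ratios was lower in both mutant libraries. Lin28b had 93.5 and 100.1 counts per 100 of Myb in mutant libraries, against 81.4 and 96.4 in control libraries, so here the groups overlapped. Per 100 counts of Lin28b, Igf2bp1 had 50.8 and 52.7 counts in mutant libraries, against 77.6 and 70.4 in control libraries. Per 100 counts of Igf2bp1, Igf2bp2 had 19.5 and 15.4 counts in mutant libraries, against 7.97 and 6.68 in control libraries. Within the silencing factors, Bcl11a had 22.2 and 25.5 counts per 100 of Klf1 in mutant libraries, against 18.3 and 19.0 in control libraries, whereas Zbtb7a had 20.1 and 19.1 against 23.9 in each control library. These ratios carry no test, since 2 libraries against 2 cannot give an exact permutation p below 0.33.

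To compare the genes with each other, CPM were divided by the length of all exons in GENCODE M21. On this scale Klf1 stood far above the rest, with 407 ± 34.2 CPM per kb in mutants and 674 ± 27.1 CPM per kb in controls (SD, n = 2 each). In controls Zbtb7a followed at 36.2 ± 1.48 CPM per kb, then Myb at 18.7 ± 0.216, Lin28b at 16.4 ± 1.76, Bcl11a at 14.6 ± 0.179, Igf2bp1 at 11.3 ± 0.442, Sox6 at 4.91 ± 0.0371, Igf2bp3 at 3.60 ± 0.0164 and Igf2bp2 at 1.08 ± 0.0922 CPM per kb. No neighbours in that order overlapped in control libraries. In mutants Myb came after Klf1 at 19.7 ± 0.357 CPM per kb, then Lin28b at 18.8 ± 1.246 and Zbtb7a at 17.9 ± 2.13 CPM per kb. Lin28b overlapped both Myb and Zbtb7a there, while both mutant values of Zbtb7a (19.43 and 16.4 CPM per kb) lay below those of Myb (19.45 and 19.96 CPM per kb), the nearest pair by a narrow margin. Bcl11a (11.2 ± 0.158 CPM per kb) and Igf2bp1 (9.12 ± 0.838 CPM per kb) followed in mutants without overlap. Sox6 (2.26 ± 0.169 CPM per kb) and Igf2bp2 (2.06 ± 0.154 CPM per kb) overlapped as well in mutants, below Igf2bp3 at 3.37 ± 0.00148. The order assumes that each gene uses all its annotated exons.

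**Figure D3:**
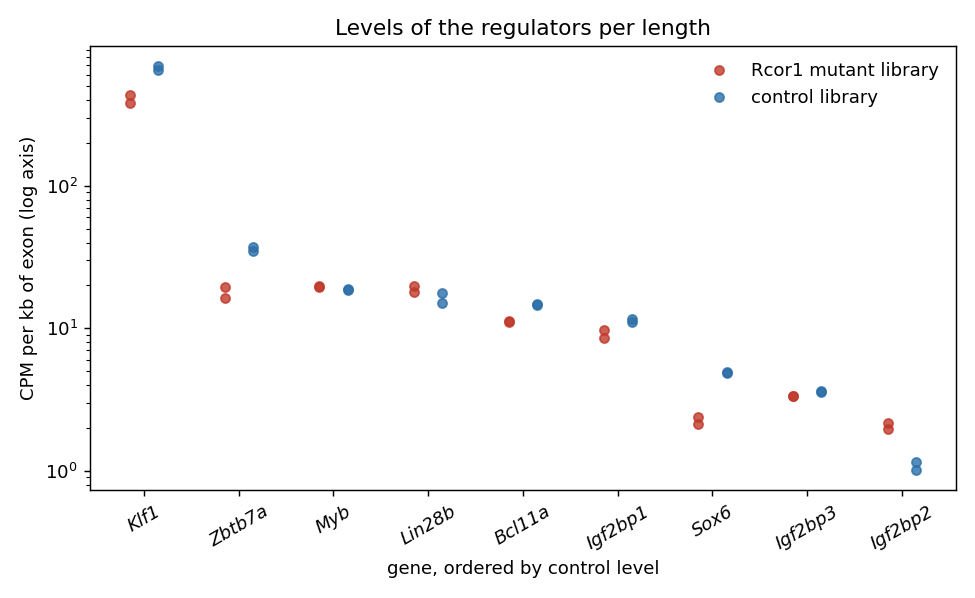
Level per kb of exon (vertical log axis) for each regulator in mutant and control libraries, ordered by the control mean; each point is a library. Klf1 lies above all others, and Zbtb7a lies above Myb and Lin28b in control libraries, while in mutant libraries it lies below Myb and overlaps Lin28b.

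Other tested genes showed profiles over the 4 libraries close to those of the regulators that passed. Likeness was the Euclidean distance between centred log2 CPM values, among genes with a mean within 2-fold. Nearest to Klf1 were Ifrd2 (distance 0.0468) and Tnfaip2 (0.0577), and nearest to Sox6 the desaturase family gene Fads3 (0.0612) and the spermine oxidase gene Smox (0.0660). Zbtb7a lay nearest to the histone methyltransferase gene Suv420h2 (0.0914) and the mitochondrial carrier gene Slc25a38 (0.109). Bcl11a lay nearest to Ndufs8 (0.0100), a subunit of respiratory complex I, and Lars2 (0.0160). For Igf2bp1 the nearest were Tnrc6c (0.0291) and Cnot10 (0.0359), for Igf2bp2 Tcn2 (0.00881) and Ddb2 (0.0997), and for Lin28b Usp9x (0.0339) and Ppp1cb (0.0346). Usp9x itself did not pass (edgeR adjusted p = 0.0585).

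The targets of the switch moved in opposite directions. Hbb-y had 1732 ± 24.7 CPM in mutants and 191 ± 3.44 CPM in controls (SD, n = 2 each; log2 fold change 3.18), and Hba-x (3.47) and Hbb-bh1 (2.87) rose as well, while Hbb-b2 (-0.69) and Hbb-b1 (-0.50) fell. Within each library there were 249.96 and 271.1 counts of Hbb-y per 100 of Hbb-b1 in mutants, against 20.4 and 20.1 in controls. This ratio leaves out Hbb-b2, the other adult beta gene, which had a mean of 615 CPM in mutants and 990 CPM in controls. The mean of Hbb-b1 was 666 CPM in mutants and 944 CPM in controls. The alpha genes Hba-a1 (-0.24) and Hba-a2 (-0.19) missed the threshold, at low levels. Hba-a1 had 5.80 ± 0.289 CPM in mutants and 6.82 ± 1.74 CPM in controls, and Hba-a2 had 2.01 ± 0.122 and 2.26 ± 0.403 CPM. Hba-a1 passed as lower without control replicate 2 (-0.48, edgeR adjusted p = 0.00931), and without control replicate 1 the sign turned for Hba-a1 (0.05, edgeR adjusted p = 0.847) and Hba-a2 (0.01, edgeR adjusted p = 0.985). Hba-a1 and Hba-a2, like Hbb-b1 and Hbb-b2, are nearly identical in sequence, so values of single copies are uncertain. Whether adult alpha globin changed cannot be read from the low counts of Hba-a1 and Hba-a2.

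The corepressors and cofactors that the silencing factors use were mostly lower by small amounts. Of 22 tested genes, 16 fell, 2 rose and 4 did not pass, with a median log2 fold change of -0.33 beside 0.01 for all genes, where 29.2% fell. The NuRD subunit gene Mta2 had 638 ± 16.005 CPM in mutants and 937 ± 70.6 CPM in controls (log2 fold change -0.55 ± 0.05 SE, edgeR adjusted p = 1.07e-07). Mbd2 (-0.51), a methyl-CpG reader whose loss raises fetal globin, and Mta1 (-0.48) followed. The histone-binding subunit gene Rbbp7 rose by 0.25 and Ncor1 by 0.15. Ncor1 did not pass without control replicate 1 (edgeR adjusted p = 0.0803) or without mutant replicate 2 (0.103), and passed under the other alternatives. Hdac1 (-0.02), Sin3a (-0.07), Gatad2b (0.11) and Nr2c2 (0.19) did not pass. Nr2c2 passed as higher with upper quartile scaling (edgeR adjusted p = 0.0211), library totals alone (0.005), the replicate block (0.00357), without control replicate 2 (0.00687) and without mutant replicate 1 (0.0117). Gatad2b passed as higher with library totals alone (edgeR adjusted p = 0.0303). Hdac1 had only 8.60 ± 0.555 CPM in mutants and 8.78 ± 0.684 CPM in controls, a low level at which reads shared with near-identical copies would matter. With library totals alone 14 fell and 4 rose.

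Among 20 other factors tied to globin switching, 11 fell, 2 rose and 7 did not pass (median log2 fold change -0.22), where 29.2% of all tested genes fell and 28.3% rose. Nfix, a nuclear factor I gene that represses fetal globin in human cells, fell the furthest, with 4.78 ± 0.189 CPM in mutants and 11.9 ± 0.160 CPM in controls (SD, n = 2 each). Its log2 fold change was -1.30 ± 0.13 SE (edgeR adjusted p = 2.08e-07). Zfpm1 (-0.55), the cofactor of GATA1, and Gata1 itself (-0.55) followed. The risers were Nfe2 (0.28) and Hic2, a repressor of the BCL11A gene in human fetal cells. Hic2 had 16.03 ± 0.626 CPM in mutants and 12.0 ± 0.515 CPM in controls (log2 fold change 0.42 ± 0.10 SE, edgeR adjusted p = 0.00201). With library totals alone 8 fell and 6 rose, and Foxo3, Atf4 and Pogz changed sign.

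Of 15 tested genes known as targets of Klf1, 12 fell and 0 rose with edgeR (median log2 fold change -0.41), where 29.2% of all tested genes fell and 28.3% rose. At an unadjusted p under 0.05 the count that rose was also 0, as it was at the adjusted threshold with DESeq2 and limma-voom. The membrane genes Epb4.2 (-1.05) and Slc4a1 (-0.98), which encodes band 3, and the haem synthesis gene Alad (-0.79) fell the furthest. Slc4a1 had 669 ± 21.4 CPM in mutants and 1319 ± 16.5 CPM in controls. Bcam, Cd44 and Cdkn2c did not pass. Cdkn2c passed as higher with library totals alone (edgeR adjusted p = 0.0153) and without control replicate 1 (0.0201), and was at -0.0046 without control replicate 2 (0.975). Cd44 passed as lower without control replicate 1 (-0.16, edgeR adjusted p = 0.0233), and its sign turned with upper quartile scaling (0.0043) and with library totals alone (0.06). All 8 erythroid markers fell too, as given above.

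Genes around let-7 and Lin28 rose more often than they fell. Of 18 tested, 8 rose, 2 fell and 8 did not pass, with a median log2 fold change of 0.21, where 28.3% of all genes rose. The cyclin gene Ccnd2 had 409 ± 45.5 CPM in mutants and 248.5 ± 28.9 CPM in controls (log2 fold change 0.72 ± 0.12 SE, edgeR adjusted p = 0.0105), Arid3b rose by 0.59 and E2f5 by 0.30. The 3′ untranslated region read for Ccnd2 held 0 matches to CTACCTC, where 27.2% of genes of similar length held the letters. That of Arid3b held 1 match, that of Nras 1 and that of Hmga2 4. The other genes of this list were not searched for the letters. The phosphatase gene Cdc25a fell by 0.39 and Dis3l2, the nuclease that degrades let-7 precursors marked through Lin28, fell by 0.26. E2f5 did not pass without control replicate 2 (edgeR adjusted p = 0.0528) or without mutant replicate 1 (0.07), and Dis3l2 did not without the same libraries (0.0517 and 0.0573). E2f5 also missed the threshold with DESeq2 (adjusted p = 0.0736) and Dis3l2 with library totals alone (edgeR adjusted p = 0.177). Hmga1 (-0.40) did not pass, but passed as lower without a filter (edgeR adjusted p = 0.00579), with the replicate block (0.0000107) and without control replicate 2 (1.19e-07). Hmga2 and Lin28a, chosen here after their values were seen, were scarce: Hmga2 had 68 and 48 counts in mutant and 15 and 18 in control libraries (log2 fold change 1.98), and Lin28a had 28 and 17 against 10 and 9 (1.40, edgeR adjusted p = 0.0043, and 0.0985 with DESeq2). Both are also expressed outside red cells. All marker sums but the erythroid one were higher in mutants, among them the mesenchymal (3.09-fold), megakaryocyte (3.07-fold) and B lymphoid (5.98-fold) sums. The part of other cell types in the values of Hmga2 and Lin28a was not tested.

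**Figure D4:**
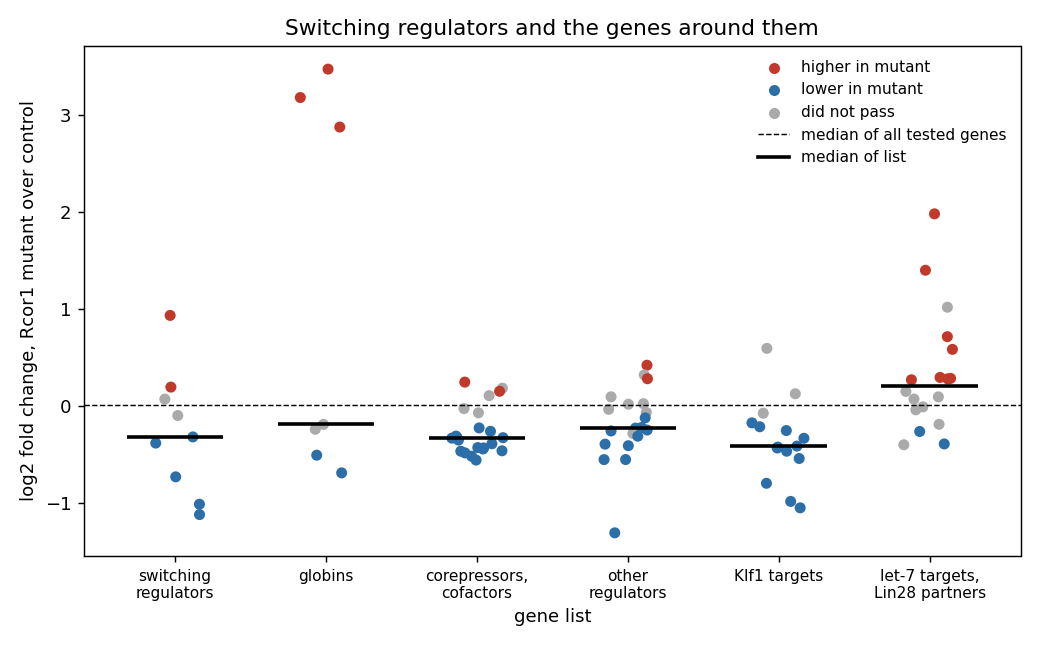
Log2 fold change of mutant over control (vertical axis) for the 9 regulators and the 5 related gene lists; each point is a tested gene, coloured by its call, solid bars are list medians and the dashed line is the median of all tested genes. The Klf1 targets and corepressors lie mostly below that line, the let-7 and Lin28 genes mostly above it, and 3 embryonic globins lie above 2.8.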

How the data were processed

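Per the labels, each of the 4 libraries pooled RNA of several livers, and replicates are biological. The submitters' processing notes name FastQC, Bowtie, edgeR and mm9. The authors deposited raw counts per gene, and a second table with log2 fold changes, p-values and FDR. The columns headed WT were taken as the controls, by replicate number, since no other group remained. The sources used here do not say how multi-mapping reads or strand were handled. The 12 rows without values were left out. Counts were fitted with edgeR 4.0.16 (R 4.3.3, limma 3.58.1): filterByExpr, TMM, glmQLFit with robust, glmQLFTest of mutant over control, two-sided, Benjamini-Hochberg over 13140 genes, threshold 0.05. Each SE was derived from the log2 fold change and its F value, and 95% intervals use the test's degrees of freedom. Library depth was 15053229 to 26892375 counts. Chi-square per gene between replicates was 3.55 in mutants and 5.67 in controls, above sampling noise, so each library counted as 1 replicate.

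Genes named are the 9 regulators and Rcor1. From each list, up to 3 called risers and fallers with at least 10 CPM in the higher group are named. The 2 nearest profiles of each regulator that passed are named too, as is every gene of a count of 5 or fewer in the main fit. Hmga1, Nras, Egfl7 and Kit were named after their values were seen. The members and lists were chosen with earlier results of these data known. Tfr2, Ahsp, Icam4 and Hras are not analysed here. Alternatives were RLE, upper quartile or total scaling, 2 other filters, DESeq2 1.42.0, limma-voom, glmQLFit without robust, a replicate block and each library left out. The procedure was checked on simulated counts. Of genes changed 1.5-fold, 47 of 67 passed, of those changed 2-fold 56 of 67, and of those changed 4-fold 62 of 66. Among unchanged genes 16 passed. Far fewer genes were changed there than passed in these data, so the check does not cover the choice of scale.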

Additional observations from a re-analysis of the deposited data

How the results depend on the processing

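Klf1, Sox6, Bcl11a, Zbtb7a, Igf2bp1 and Igf2bp2 kept their direction and call under all 13 alternatives, with log2 fold changes of -0.81 to -0.59, -1.20 to -0.98, -0.42 to -0.24, -1.14 to -0.87, -0.40 to -0.18 and 0.84 to 1.07. The log2 fold change of Igf2bp3 changed sign to 0.041 with library totals alone, and Igf2bp3 did not pass under any. With library totals alone 5112 genes were higher and 2553 lower, against 3723 and 3835 with TMM, and the number called higher was 1 of the Klf1 targets, 4 corepressors and cofactors and 6 other factors, with 1 let-7 gene lower. Without a filter 4 let-7 genes were lower. Leaving out 1 library at a time, the number called higher ran from 1 to 2 for the 9 regulators, 1 to 3 for the corepressors and cofactors and 0 to 1 for the Klf1 targets. The causes were not tested.

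The replicate numbers match between groups, but no label says that they pair the libraries. Replicate 1 deviations of mutant and control correlated at 0.22 over 11582 genes. With the replicate block 4135 genes were higher and 4267 lower, 4 let-7 genes were lower, and the calls of the 9 regulators did not change. Low counts limit the precision of scarce genes such as Lin28a and Hmga2, and with 2 libraries a group every SE rests on spread shared across genes.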
